A study of Mus musculus with 13 samples.

Results

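Control tracheas of the embryonic stage E11.5 were compared with control foreguts of E10.5, to describe the normal change over the interval in which the mouse foregut tube has divided and the trachea begins to pattern its wall. The comparison used the 6 control libraries of the 13 in the series, 3 from control tracheas and 3 from control foreguts. The methods describe each as a separate embryo dissection. The libraries were chosen by their labels alone. All 6 carried Gli3TFlag/+, a transgene for a truncated Gli3 repressor that stays off without Cre, and none carried Cre. The strain is labelled C57BL/6, while the methods describe an outbred background. The mutants, Foxg1Cre;Gli3TFlag/+, switch the transgene on where Foxg1Cre has acted, and their 4 trachea and 3 foregut libraries were used only for the same contrast within mutants. Stage, tissue, dissection and planned sequencing depth all changed together between the control groups, so that their parts in a difference cannot be told apart. RNA was total RNA of whole dissected tissue. In such bulk samples fewer cells of a type and less RNA per cell cannot be told apart either.

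The foregut is an endodermal tube wrapped in splanchnic mesoderm. Its ventral side turns on the transcription factor Nkx2-1 and becomes trachea and lung, while the dorsal side keeps Sox2 and becomes esophagus. Epithelial Sonic hedgehog (Shh) signals to the surrounding mesoderm through Gli transcription factors and the forkhead factor Foxf1, and Wnt ligands of the epithelium and mesoderm pattern that mesoderm into Sox9-expressing chondrocyte progenitors ventrally and smooth muscle dorsally.

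The control tracheas had 12547575, 13925677 and 13904995 estimated counts per library, and the control foreguts 16695522, 17988461 and 17970522. Of 32793 gene symbols present in both tables, 15247 had enough counts to be tested. The 4 most abundant features, GU332589, AK155692, Lars2 and AK140265, took 23.0% to 24.6% of counts in control tracheas and 17.7% to 20.2% in control foreguts. Levels are given as CPM, counts scaled by library size with TMM factors. Differences are log2 fold changes of trachea over foregut with their standard errors (SE), and adjusted p-values are Benjamini-Hochberg values over the 15247 genes, from the quasi-likelihood test of edgeR. A lone number in parentheses after a gene is its log2 fold change.

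Control trachea replicate 1 stood apart from the other control tracheas. Its summed CPM over 21 cardiomyocyte genes was 937, against 227 and 79.4 in control trachea replicates 2 and 3 and 90.8 to 109 in the control foreguts. Over 14 skeletal muscle genes the sum was 47.8, against 20.1 and 17.1 in control trachea replicates 2 and 3 and 12.3 to 19.1 in the control foreguts. Trp63 had 19.6, 0.215 and 0.581 CPM in control tracheas, against 22.7, 36.1 and 21.8 CPM in control foreguts. Trp63 encodes the p63 factor of basal and esophageal progenitors, and replicate 1 was the one trachea library near the foregut level. Ttn, the giant spring protein of striated muscle, had 380.3, 82.9 and 3.99 CPM in control tracheas, against 8.32, 13.8 and 5.87 CPM in control foreguts. Xist, the transcript of the inactive X chromosome, was abundant in that library alone, which also had 0 CPM of the Y-linked Ddx3y, against 39.3 and 32.6 CPM in the other control tracheas and 24.2 to 27.9 CPM in the control foreguts. Replicate 1 thus had the transcripts of female tissue, and the other 5 libraries those of male tissue. Of the 421 genes called lower at a log2 fold change of -1 or less when replicate 1 was left out, its value lay within the range of the 3 foreguts for 61 (14.5%). Of the 1059 called higher, the same held for 93 (8.78%). Results that rest on that library are given with and without it.

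Blood content varied by library in both groups. The 15 erythroid genes in the files summed to 3543, 12393 and 22119 CPM in control tracheas, against 21306, 25082 and 1879 CPM in control foreguts, and 0 of the 15 passed the test with any 1 library left out or with all 6. Most liver, pancreas, intestine and neural tube markers were at or near 0, with 6 of 18 liver, pancreas and intestine genes and 2 of 12 neural tube genes passing the filter on low counts. The highest of them on average was Prox1, which also marks lymphatic endothelium, with 20.4, 22.3 and 19.9 CPM in control tracheas and 9.50 to 14.5 CPM in control foreguts. Lmx1a, a roof plate factor, had 1.78, 5.01 and 12 CPM in control tracheas, against 9.41, 13 and 0.641 CPM in control foreguts, with the groups overlapping (adjusted p = 0.841). Alb, the serum albumin of liver, stayed below 1 CPM in every library, and Pdx1, Ptf1a, Cdx2 and Olig2 were at 0 counts in all 6, where each count of 0 over a group allows up to 3 counts.

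**Figure D1:**
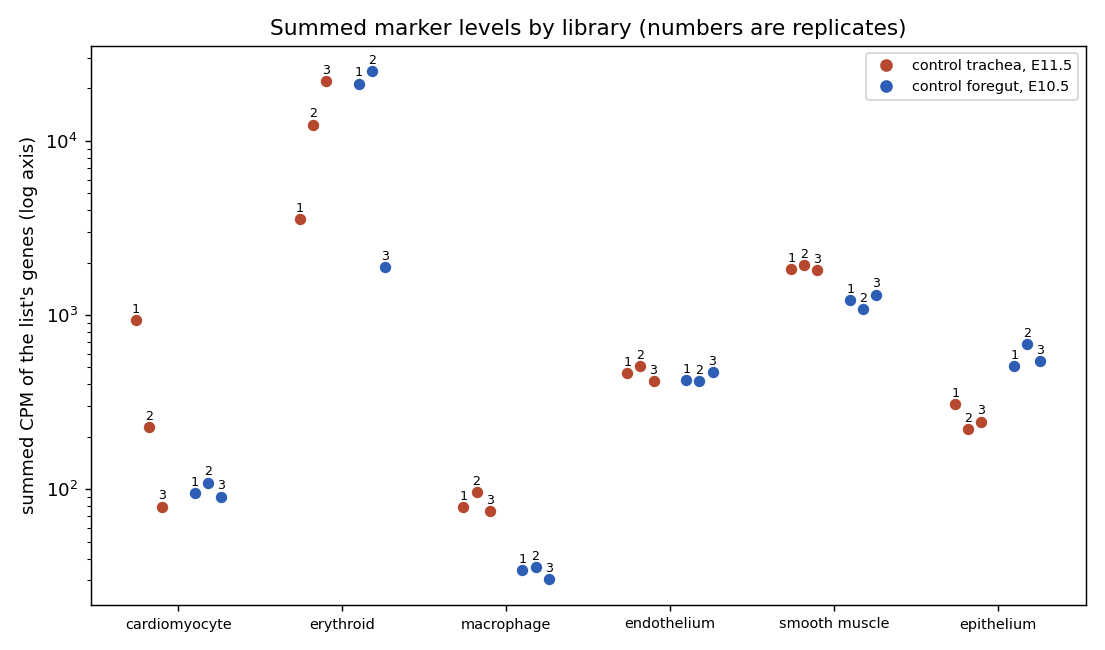
Summed CPM of the genes of 6 marker lists in each control library, on a log axis, with control tracheas to the left of control foreguts within each list and replicate numbers above the points. Cardiomyocyte genes are high in control trachea replicate 1 (937 CPM), erythroid genes range from 1879 to 25082 CPM across both groups, and the macrophage, smooth muscle and epithelium sums do not overlap between the groups.

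With both a 2-fold difference or more and an adjusted p no higher than 0.05, 979 genes (6.42% of those tested) were higher in control tracheas and 240 (1.57%) were lower. A list member counted as higher or lower when its adjusted p was under 0.05, whatever its fold, and by this rule 11.4% of all tested genes were higher and 9.53% lower. The call was held in each of the 6 fits that left out 1 library for 7.13% of tested genes, 4.21% higher and 2.92% lower. A call described below without further comment is one of these. Separate groups were common. The 3 control tracheas lay above the 3 control foreguts in CPM, without overlap, for 21.9% of all tested genes and below them for 20.6%. Without control trachea replicate 1, 1059 genes were higher and 421 lower. Without control trachea replicate 2, or control foregut replicate 1, 2 or 3, the number higher was 599, 639, 582 or 593.

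**Figure D2:**
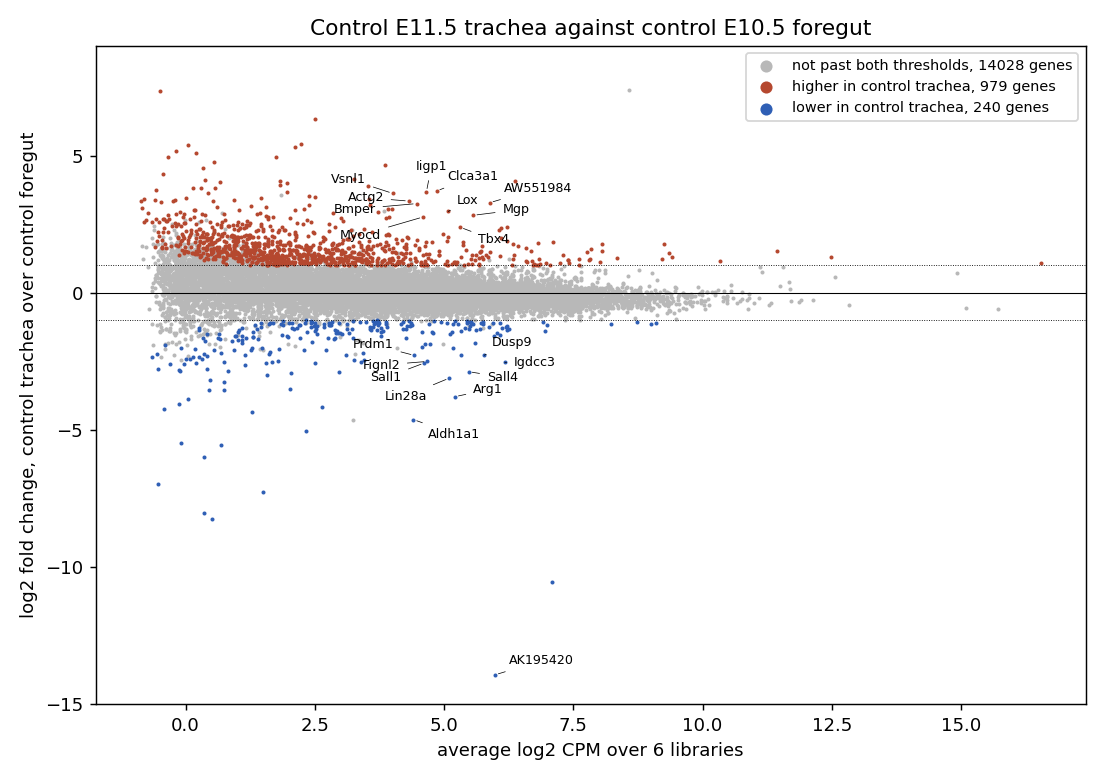
Each point is 1 of the 15247 tested genes, with its average log2 CPM over the 6 control libraries on the horizontal axis and its log2 fold change, control trachea over control foregut, on the vertical axis. The 979 genes higher and 240 lower at both thresholds are coloured. The labels mark the 10 largest changes in each direction among genes that held in every fit, had separate groups and averaged at least 4 log2 CPM.

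Among abundant genes with calls that held in every fit, the 10 that rose most included 2 of the contractile programme. Actg2, the enteric smooth muscle actin, had 30.8, 50.2 and 28.5 CPM in control tracheas, against 2.47, 4.03 and 4.22 CPM in control foreguts (log2 fold change 3.34 ± 0.28, SE; adjusted p = 0.000409). Myocd, a coactivator of smooth muscle genes, had 33.5, 51.6 and 41.8 CPM in control tracheas, against 4.58, 5.68 and 8.33 CPM in control foreguts (log2 fold change 2.77 ± 0.24, SE; adjusted p = 0.00047). Each trachea library was above every foregut library for both, as separate groups were a condition for being among these 10. The set also held Tbx4 (2.39), a T-box factor of lung and tracheal mesenchyme, Mgp (2.83), the matrix Gla protein that inhibits calcification, Lox (2.96), a crosslinker of collagen and elastin, and Bmper (3.25), an extracellular binder of BMPs. Clca3a1 (3.71), Iigp1 (3.67), Vsnl1 (3.62) and AW551984 (3.28) completed it.

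The 10 that fell most were led by a feature with no gene name, AK195420, which had 0 counts in the 3 control tracheas and 6758 counts in the 3 control foreguts. Against a floor of 3 counts over the trachea group, it was at least 1708-fold lower in control tracheas, a bound for counting error only. Within the mutant libraries its log2 fold change of trachea over foregut was -1.01 (adjusted p = 0.675). Aldh1a1, a retinaldehyde dehydrogenase, had 1.70, 1.72 and 1.45 CPM in control tracheas, against 12.5, 54.3 and 53.3 CPM in control foreguts (log2 fold change -4.62 ± 0.56, SE; adjusted p = 0.0016). Arg1, the arginase of the urea cycle, had 5.09, 3.08 and 6.68 CPM in control tracheas, against 49.4, 85.1 and 70.6 CPM in control foreguts (log2 fold change -3.79 ± 0.28, SE; adjusted p = 0.000319). The groups stood apart for both, which the same condition required of all 10. Lin28a, Sall4, Sall1 (-2.56), Igdcc3 (-2.53), Fignl2 (-2.50), Prdm1 (-2.28) and Dusp9 (-2.28) made up the rest. Sall1 and Sall4 are zinc-finger repressors of early progenitors, and Dusp9 is a phosphatase of the ERK pathway.

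Markers of the labelled tissues were present in both groups, Nkx2-1 and Foxa2 of foregut and airway endoderm and Foxf1 of its mesoderm. The respiratory epithelium genes moved both ways, with Nkx2-1, Cldn18 and Wnt7b higher and Foxa1, Foxp4 and Foxj1 lower in every fit. Nkx2-1 had 24.9, 36.2 and 41.6 CPM in control tracheas, against 20.6, 12.1 and 13.8 CPM in control foreguts (log2 fold change 1.15 ± 0.23, SE; adjusted p = 0.0117). Cldn18, a claudin of lung epithelium, had 8.56, 15.9 and 14.1 CPM in control tracheas, against 2.35, 0.966 and 1.82 CPM in control foreguts (log2 fold change 2.91 ± 0.34, SE; adjusted p = 0.0015). Wnt7b, a Wnt ligand of airway epithelium, had 16.4, 30.9 and 31.5 CPM in control tracheas, against 10.8, 6.99 and 11.2 CPM in control foreguts (log2 fold change 1.45 ± 0.27, SE; adjusted p = 0.00808). The 3 genes were lowest, among tracheas, in control trachea replicate 1, and their groups did not overlap. Of the 14 tested members of the respiratory epithelium list, 4 were higher and 5 lower, with a median log2 fold change of -0.47 against 0.02 for all genes tested. The fourth gene higher was Foxp2 (0.53), a forkhead factor of distal airway, which lost its call without control foregut replicate 1 or 2 (adjusted p up to 0.0741). The lower genes were Foxa1 (-1.43) and Foxa2 (-0.92), pioneer factors of endoderm, Foxp4 (-0.74), Foxj1 (-1.72), the regulator of motile cilia, and Shh. Of these, the calls of Foxa2 and Shh were lost in some fits (highest adjusted p 0.0608 for Foxa2), and without control foregut replicate 1 or 2 the number lower was 3. Surfactant and secretory genes of mature lung, Sftpc, Sftpb and Scgb3a2, were below 1 CPM in every library.

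General epithelial genes fell as a group. Of 19 tested, 16 were lower and 0 higher, and 13 were lower in every fit, with a median log2 fold change of -1.08. Epcam had 31.2, 33.5 and 33.3 CPM in control tracheas, against 54.3, 74.2 and 64.5 CPM in control foreguts (log2 fold change -0.98 ± 0.12, SE; adjusted p = 0.00185). Krt18, a keratin of simple epithelia, had 14.2, 14 and 15.5 CPM in control tracheas, against 35.5, 47.3 and 36.5 CPM in control foreguts (log2 fold change -1.45 ± 0.14, SE; adjusted p = 0.000565). Cdh1, which encodes E-cadherin, had 52.6, 19.4 and 22.9 CPM in control tracheas, against 78.0, 115 and 85.8 CPM in control foreguts (log2 fold change -1.56 ± 0.33, SE; adjusted p = 0.0136). Epcam and Krt18 were tight within each group, while Cdh1 was again highest among tracheas in replicate 1. Krt8 (-1.43), Krt19 (-2.26), Cldn4 (-1.51) and St14 (-1.23) fell too.

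Ratios within a library do not depend on how much of the tissue was epithelium, to the extent that both genes are epithelial. Nkx2-1 TPM (a relative transcript abundance that adjusts for transcript length) divided by Epcam TPM was 0.715, 0.97 and 1.12 in control tracheas and 0.341, 0.146 and 0.191 in control foreguts. Cldn18 over Epcam was 0.197, 0.341 and 0.306 in control tracheas and 0.0311, 0.00944 and 0.0202 in control foreguts. Wnt7b over Epcam was 0.319, 0.558 and 0.57 in control tracheas and 0.12, 0.0568 and 0.104 in control foreguts. Sox2 over Epcam was 0.123, 0.0622 and 0.112 in control tracheas and 0.125, 0.144 and 0.141 in control foreguts. Each Sox2 ratio was lower in trachea than in any foregut, with means of 0.099 and 0.137 that lie closer than those of Sox2 alone. Shh over Epcam averaged 0.282 ± 0.2 in control tracheas and 0.327 ± 0.0616 in control foreguts, and Foxa2 over Epcam averaged 0.244 ± 0.0584 in control tracheas and 0.241 ± 0.0483 in control foreguts (SD, n = 3 each). The exact two-sided permutation test over libraries gave p = 0.1 for the first 4 ratios, the smallest that 3 against 3 libraries allow, p = 0.7 for Shh over Epcam and p = 0.9 for Foxa2 over Epcam, in a family of 11 ratios for which no p could pass 0.05.

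Several esophageal and gastric genes were lower. Of 13 tested, 6 were lower (4 of them in every fit), 1 was higher and 6 did not pass, with a median of -1.57. Sox2 had 4.61, 2.51 and 4.50 CPM in control tracheas, against 8.20, 12.9 and 10.9 CPM in control foreguts (log2 fold change -1.47 ± 0.27, SE; adjusted p = 0.00806). Klf5, a regulator of foregut epithelium, had 7.03, 2.15 and 2.25 CPM in control tracheas, against 18.8, 20.5 and 12.6 CPM in control foreguts (log2 fold change -2.20 ± 0.42, SE; adjusted p = 0.0089). Sox21, a SoxB factor of the dorsal foregut, had 1.94, 0.501 and 0.29 CPM in control tracheas, against 5.91, 7.96 and 6.35 CPM in control foreguts (log2 fold change -2.91 ± 0.52, SE; adjusted p = 0.00673). For Klf5 and Sox21 replicate 1 was again the highest trachea, yet below every foregut, and without it their log2 fold changes were -2.97 and -4.07. Pitx1, a homeobox gene of the first pharyngeal arch and hindlimb, had 1 count in the 3 tracheas together and 269 in the 3 foreguts, a trachea-to-foregut ratio, scaled for library size, of 0.0049 (95% exact interval 0.000124 to 0.0276, for counting error only). Pax9 (-2.90) and the stomach mesenchyme gene Barx1 (-1.57) were lower with all 6 libraries, at adjusted p-values of up to 0.0909 and 0.0616 with 1 left out. The 1 gene higher was Gata4 (1.49), which also marks mesoderm. Trp63 and its target keratin Krt5 did not pass the test with all 6 libraries (adjusted p = 0.179 and 0.158). Without control trachea replicate 1 the log2 fold change of Trp63 was -6.06 (adjusted p = 3.53e-05) and that of Krt5 was -4.56 (adjusted p = 0.00295). Nkx2-1 over Sox2 in TPM was 5.83, 15.6 and 10.0 in control tracheas and 2.72, 1.01 and 1.36 in control foreguts.

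Of 17 tested smooth muscle genes, 9 were higher, all 9 in every fit, and the median was 0.84. Myh11, the smooth muscle myosin heavy chain, had 21.3, 26.6 and 17.0 CPM in control tracheas, against 2.29, 2.05 and 2.62 CPM in control foreguts (log2 fold change 3.22 ± 0.22, SE; adjusted p = 0.000185). Acta2, smooth muscle alpha-actin, had 174, 209 and 141 CPM in control tracheas, against 46.9, 47.6 and 54.5 CPM in control foreguts (log2 fold change 1.82 ± 0.15, SE; adjusted p = 0.000392). Cnn1, calponin, had 24.8, 28.9 and 21.2 CPM in control tracheas, against 6.63, 5.28 and 5.55 CPM in control foreguts (log2 fold change 2.10 ± 0.17, SE; adjusted p = 0.000392). Every trachea was far above every foregut for each of these genes. Mylk (1.73), Myl9 (1.38), Tpm2 (1.18) and Tpm1 (0.84) rose as well. The 1 lower member, Des (-0.61), encodes the desmin of all muscle, and its call was lost in every fit but the one without control trachea replicate 1 (adjusted p up to 0.104).

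Cartilage genes moved both ways. Sox9 had 125, 151 and 133 CPM in control tracheas, against 70.8, 83.5 and 78.0 CPM in control foreguts (log2 fold change 0.81 ± 0.11, SE; adjusted p = 0.00199). Sox6, which acts with Sox9 on matrix genes, had 59.0, 50.5 and 43.3 CPM in control tracheas, against 19.8, 24.7 and 26.1 CPM in control foreguts (log2 fold change 1.11 ± 0.15, SE; adjusted p = 0.00209). Col2a1, the main collagen of cartilage, had 153, 98.4 and 85.6 CPM in control tracheas, against 166, 235 and 226 CPM in control foreguts (log2 fold change -0.90 ± 0.22, SE; adjusted p = 0.0212). Col2a1 thus lay on the other side of 0 from Sox9, but its adjusted p reached 0.0775 with 1 library left out and the call was lost in 4 of the 6 fits. Of 13 tested members 5 were higher and 2 lower (median 0.48). The number higher was 3 without control foregut replicate 1 or 3 or control trachea replicate 2. The number lower was 0 without control foregut replicate 3 and 1 without control foregut replicate 1 or 2 or control trachea replicate 2 or 3. Col9a3 (2.04) and Col9a2 (1.52), chains of a collagen that coats type II fibrils, were higher beside the Sox genes, with adjusted p-values of up to 0.0511 and 0.132, as was Wwp2 (0.64, up to 0.114). The other gene lower was Hapln1 (-1.0, up to 0.0721), a link protein of cartilage matrix. Mature matrix genes Acan, Matn1 and Comp had too few counts to test.

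Sox9 and Foxf1 moved in opposite directions. Foxf1 had 75.1, 71.1 and 69.8 CPM in control tracheas, against 156, 114 and 154 CPM in control foreguts (log2 fold change -0.97 ± 0.13, SE; adjusted p = 0.0021). Sox9 over Foxf1 in TPM was 0.957, 1.22 and 1.1 in control tracheas and 0.336, 0.537 and 0.349 in control foreguts. The ratio was at least 0.957 in all tracheas and at most 0.537 in all foreguts (exact two-sided permutation p = 0.1, the smallest possible).

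**Figure D3:**
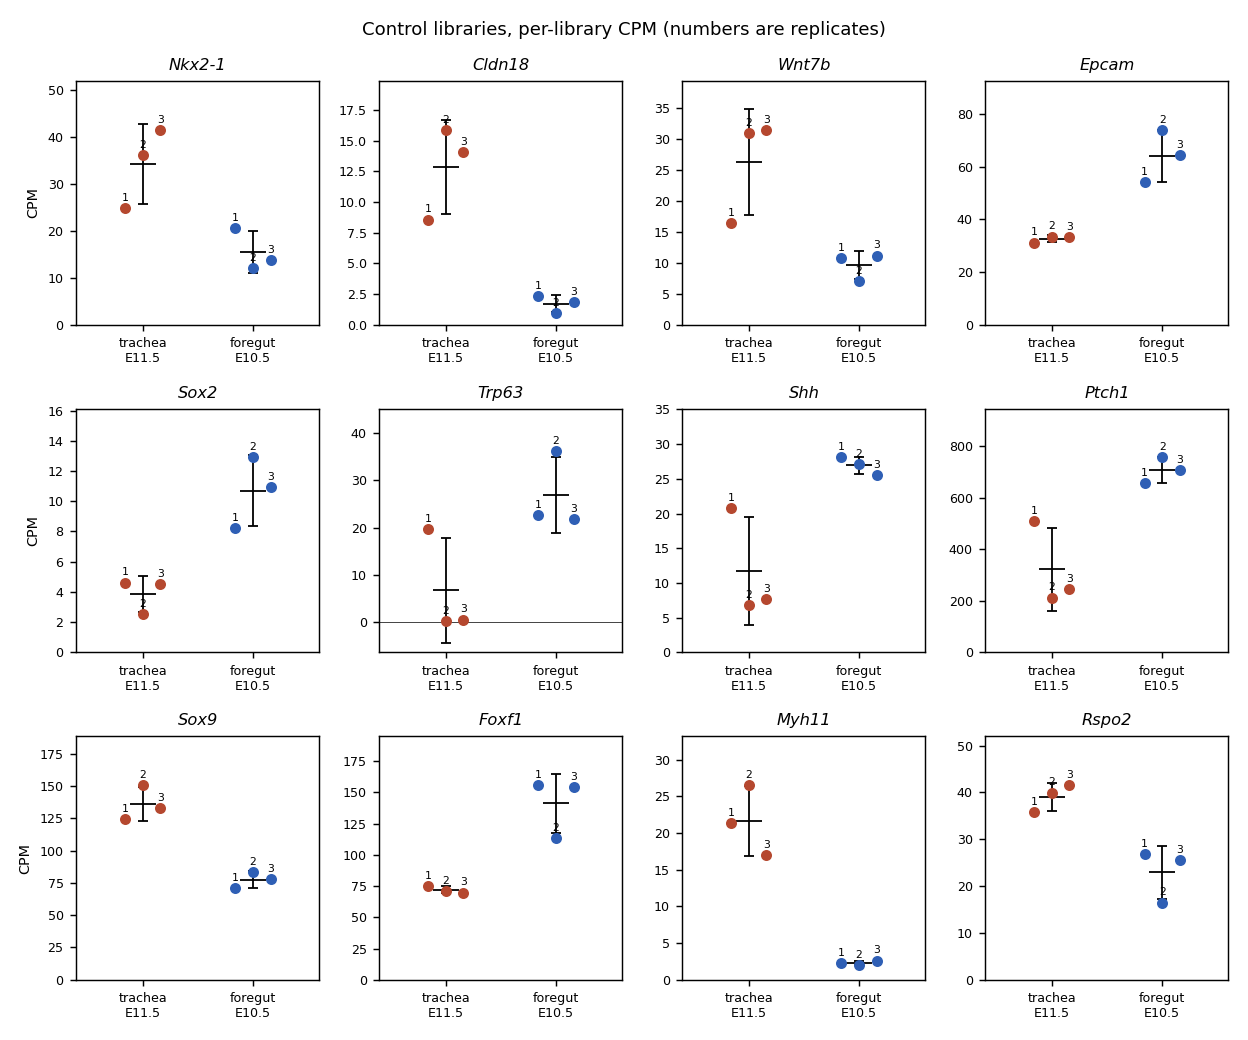
CPM of 12 genes in each control library, with control tracheas (E11.5) left of control foreguts (E10.5). Points are libraries with their replicate number, and bars are means with SD (n = 3). Nkx2-1, Cldn18, Wnt7b, Sox9, Myh11 and Rspo2 are higher in control tracheas and Epcam, Sox2 and Foxf1 lower, while for Trp63, Shh and Ptch1 control trachea replicate 1 lies toward the foregut level.

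Hedgehog signalling was described by ligand, receptors, coreceptors and targets. Shh had 20.8, 6.80 and 7.62 CPM in control tracheas, against 28.1, 27.1 and 25.6 CPM in control foreguts (log2 fold change -1.21 ± 0.36, SE; adjusted p = 0.0438). Ptch1, the Shh receptor and a transcriptional target, had 508, 212 and 245 CPM in control tracheas, against 658, 758 and 707 CPM in control foreguts (log2 fold change -1.14 ± 0.29, SE; adjusted p = 0.0245). Foxf2, a forkhead gene of foregut mesoderm, had 34.7, 9.38 and 9.80 CPM in control tracheas, against 46.9, 50.1 and 54.8 CPM in control foreguts (log2 fold change -1.5 ± 0.43, SE; adjusted p = 0.0373). In each of these genes control trachea replicate 1 lay between the other tracheas and the foreguts. Without it the log2 fold changes were -1.90 for Shh, -1.63 for Ptch1 and -2.4 for Foxf2 (adjusted p = 4.3e-05, 3.8e-05 and 1.18e-05), whereas all 3 calls were lost when any other library was left out, at adjusted p-values of up to 0.118, 0.073 and 0.104. Of 17 pathway genes tested, 3 were higher and 6 lower. The number lower was 1 without control foregut replicate 1 and 2 without control foregut replicate 2 or 3 or control trachea replicate 3. Of the 6, Foxf1 alone was lower in every fit. Foxl1 (-0.94, adjusted p up to 0.0565) and Sufu (-0.40, up to 0.121) made up the 6.

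The 3 genes higher, Boc, Cdon and Gas1, are the coreceptors that present hedgehog ligand to Ptch1. Boc had 85.6, 99.3 and 78.8 CPM in control tracheas, against 26.3, 33.1 and 33.7 CPM in control foreguts (log2 fold change 1.5 ± 0.13, SE; adjusted p = 0.000481). Cdon had 65.7, 78.1 and 61.8 CPM in control tracheas, against 30.5, 32.2 and 39.1 CPM in control foreguts (log2 fold change 1.01 ± 0.13, SE; adjusted p = 0.00195). Gas1 had 87.4, 92.1 and 82.7 CPM in control tracheas, against 45.5, 44.1 and 60.0 CPM in control foreguts (log2 fold change 0.81 ± 0.13, SE; adjusted p = 0.00388). None of the 3 overlapped between groups. The transducers and other targets did not pass: Smo (-0.21), Gli1 (-0.32), Gli2 (-0.22), Gli3 (-0.25) and the feedback inhibitor Hhip (0.41) had adjusted p-values from 0.127 to 0.199. Ihh had too few counts to test, 1 in the control tracheas and 17 in the control foreguts.

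Among 13 tested Wnt ligands and R-spondins, 3 were higher and 2 lower (median -0.01). Rspo2, a secreted amplifier of Wnt signalling needed for tracheal cartilage, had 35.8, 39.9 and 41.6 CPM in control tracheas, against 26.8, 16.5 and 25.5 CPM in control foreguts (log2 fold change 0.77 ± 0.18, SE; adjusted p = 0.017). Wnt4 had 7.35, 11 and 12.8 CPM in control tracheas, against 46.1, 28.5 and 40.7 CPM in control foreguts (log2 fold change -1.88 ± 0.23, SE; adjusted p = 0.00161). Wnt11, a ligand of noncanonical Wnt signalling, had 5.01, 6.59 and 6.31 CPM in control tracheas, against 1.63, 1.48 and 2.94 CPM in control foreguts (log2 fold change 1.56 ± 0.31, SE; adjusted p = 0.0103). Rspo2 thus rose and Wnt4 fell, but Rspo2 lost its call without control trachea replicate 2 or 3 (adjusted p up to 0.0567). Rspo3 (-1.25) was the second gene lower and lost its call without any 1 of the foregut libraries (up to 0.11), leaving 1 lower without control foregut replicate 1 or 3. Wnt5a (-0.50, adjusted p = 0.0651), the Wnt sorting receptor Wls (-0.36, adjusted p = 0.22) and the Wnt5a receptor Ror2 (0.37, adjusted p = 0.185) did not pass. Wnt5a had 197, 122 and 128 CPM in control tracheas, against 214, 212 and 205 CPM in control foreguts. Leaving out control trachea replicate 1 gave Wnt5a a log2 fold change of -0.76 (adjusted p = 0.000291).

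Of 25 tested Wnt receptors, antagonists and feedback genes, 5 were higher and 2 lower (median 0.07), and of these Ror1 and Dkk2 held in every fit. Ror1, a receptor for Wnt5a, had 36.0, 36.9 and 29.7 CPM in control tracheas, against 9.95, 11.7 and 13 CPM in control foreguts (log2 fold change 1.57 ± 0.14, SE; adjusted p = 0.000529). Dkk2, a secreted Wnt modulator, had 14.4, 21.3 and 14.7 CPM in control tracheas, against 5.19, 2.67 and 3.52 CPM in control foreguts (log2 fold change 2.15 ± 0.27, SE; adjusted p = 0.00175). Notum, a secreted Wnt deacylase and itself a Wnt target, had 1.13, 4.08 and 2.4 CPM in control tracheas, against 0.301, 0 and 0.427 CPM in control foreguts (log2 fold change 3.34 ± 0.77, SE; adjusted p = 0.0182). Notum was low in all libraries and lost its call without control foregut replicate 1 or control trachea replicate 2 (adjusted p up to 0.0741). The counts were 2 higher without control foregut replicate 1 or control trachea replicate 2 and 3 without control foregut replicate 2, and the 2 lower genes, Fzd8 (-0.98) and Lrp5 (-0.33), were called in no fit that left out a library other than control trachea replicate 1 (up to 0.118 and 0.151). In that fit 6 were lower. Lgr6 (1.5, up to 0.0661) and Nkd1 (0.45, up to 0.125) were the remaining genes higher.

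BMP and TGF-beta genes leaned upward, with 7 of 23 higher and 3 lower (median 0.21). Bmp3 had 20.2, 40.7 and 20.1 CPM in control tracheas, against 3.26, 2.73 and 3.74 CPM in control foreguts (log2 fold change 3.05 ± 0.31, SE; adjusted p = 0.000689). Grem1, a secreted BMP antagonist, had 1.05, 0.286 and 0.508 CPM in control tracheas, against 5.61, 6.36 and 8.92 CPM in control foreguts (log2 fold change -3.51 ± 0.41, SE; adjusted p = 0.00147). Tgfb2 had 144, 153 and 153 CPM in control tracheas, against 82.3, 59.7 and 82.3 CPM in control foreguts (log2 fold change 1.0 ± 0.13, SE; adjusted p = 0.00195). Bmp3 and Tgfb2 were thus higher and Grem1 lower, while the other BMP ligands called went both ways. Bambi (0.51, adjusted p up to 0.102) and Bmp5 (0.87, up to 0.0728) were the other genes higher that lost the call in some fits. Tgfb3 (1.01), Tgfbr2 (0.64) and Ltbp1 (0.88), which holds latent TGF-beta in the matrix, rose in every fit too. Bmp4 (-0.39) and Bmp2 (-1.05) were lower with all 6 libraries, with adjusted p-values of up to 0.133 and 0.0931 otherwise. The number lower was 1 without any 1 of the foregut libraries or control trachea replicate 3 and 5 without control trachea replicate 1. Of 13 tested FGF genes, 0 passed with all 6 libraries.

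Extracellular matrix genes rose, 16 of 27 higher and 1 lower (median 1.02), 10 and 1 of them in every fit. Sparc, a collagen-binding matrix protein, had 1013, 1052 and 835 CPM in control tracheas, against 419, 362 and 407 CPM in control foreguts (log2 fold change 1.29 ± 0.12, SE; adjusted p = 0.000578). Col1a1 had 351, 335 and 266 CPM in control tracheas, against 141, 125 and 136 CPM in control foreguts (log2 fold change 1.24 ± 0.12, SE; adjusted p = 0.000689). Postn, periostin, had 43.4, 69.9 and 41.7 CPM in control tracheas, against 11.6, 10.3 and 12.8 CPM in control foreguts (log2 fold change 2.16 ± 0.21, SE; adjusted p = 0.000565). None of the 3 overlapped between groups. The proteoglycan Bgn (1.76), Col14a1 (1.89), Col1a2 (1.76) and the type VI collagens Col6a1 (1.72) and Col6a2 (1.92) rose as well. The 1 gene lower was another small proteoglycan, Dcn (-1.32). The number higher was 10 without control foregut replicate 3, and without control trachea replicate 1 the number lower was 4.

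Retinoic acid genes leaned down, 6 of 14 lower and 1 higher (median -0.33). Beside Aldh1a1, the binding proteins Crabp2 (-1.34) and Crabp1 (-1.32) and the retinol dehydrogenase Rdh10 (-0.65) fell in every fit. Cyp26b1 (-0.86), which degrades retinoic acid, and Rara (-0.47), a receptor, had adjusted p-values of up to 0.0582 and 0.0747 with 1 library left out. Without control trachea replicate 1, 2 were higher. The gene higher with all 6 was Dhrs3 (0.76), which reduces retinal, called in the 3 fits that left out a trachea library but in 0 of those that left out a foregut library.

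Among 23 tested mesenchymal transcription factors, 6 were higher and 5 lower (median -0.06). Tbx4 and Gata4 rose in every fit. Tbx5, a T-box partner of Tbx4 in lung mesoderm, had 249.8, 353 and 368 CPM in control tracheas, against 147, 53.9 and 143 CPM in control foreguts (log2 fold change 1.5 ± 0.33, SE; adjusted p = 0.0155), with an adjusted p of 0.0543 without control trachea replicate 2. Prrx1 (-0.71) and Prrx2 (-0.75), homeobox genes of craniofacial and limb mesenchyme, fell. Nkx2-5 (-2.81), Hand2 (-0.66) and Barx1 were lower with all 6 libraries (adjusted p up to 0.159, 0.113 and 0.0616 with 1 left out). The number higher was 3 without control foregut replicate 1 or 3 and 2 without control trachea replicate 2, and the number lower was 3, 2, 3 and 3 without control foregut replicate 1, control foregut replicate 2, control trachea replicate 2 and control trachea replicate 3. Of 14 craniofacial and limb genes, 5 were lower and 2 higher, with Six2 (-1.26), Dlx2 (-1.19) and Pitx1 lower and Alx4 (1.12) higher in every fit. Shox2 (-1.32, adjusted p up to 0.115) was lower and Hic1 (0.74, up to 0.111) higher with all 6 libraries. The number lower was 3 without control foregut replicate 2, and the number higher was 1 in each fit but the one without control trachea replicate 1.

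Hox genes abundant enough to test were limited to the anterior paralogs. All 15 genes of paralog groups 1 to 5 were tested and 0 of the 24 of groups 6 to 13, whose highest value in any control library was 1.53 CPM. Of the 15, 7 were lower and 0 higher (median -0.83). Hoxb1 had 0.162, 0.429 and 1.23 CPM in control tracheas, against 6.45, 13.1 and 13.9 CPM in control foreguts (log2 fold change -4.16 ± 0.53, SE; adjusted p = 0.00185). Hoxb5 had 9.45, 12.9 and 11.3 CPM in control tracheas, against 33.7, 45.4 and 45.1 CPM in control foreguts (log2 fold change -1.88 ± 0.16, SE; adjusted p = 0.000481). Hoxb4 had 18.4, 25.1 and 23.2 CPM in control tracheas, against 37.2, 38.5 and 45.4 CPM in control foreguts (log2 fold change -0.86 ± 0.14, SE; adjusted p = 0.00444). These 3 genes of 1 cluster fell by different amounts, with Hoxb1 close to 0 in tracheas. Hoxc4 (-2.45) and Hoxc5 (-2.08) fell too. Hoxa5, required for tracheal and lung morphogenesis, had 12.1, 20.5 and 26.2 CPM in control tracheas, against 9.83, 11 and 12.8 CPM in control foreguts, and did not pass with all 6 libraries (log2 fold change 0.81, adjusted p = 0.0522). Its log2 fold change was 1.05 (adjusted p = 0.00187) without control trachea replicate 1, where 2 Hox genes were higher and 9 lower.

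Heterochronic genes, which set developmental timing, fell as a group. Of 13 tested heterochronic genes, 10 were lower and 0 higher, 8 in every fit, with a median of -1.07. Lin28a, an RNA-binding protein that blocks maturation of let-7 microRNAs, had 5.17, 4.01 and 12 CPM in control tracheas, against 47.6, 66.3 and 69.2 CPM in control foreguts (log2 fold change -3.11 ± 0.35, SE; adjusted p = 0.00111). Its paralog Lin28b had 43.4, 38.4 and 51.4 CPM in control tracheas, against 99.7, 94.2 and 116 CPM in control foreguts (log2 fold change -1.22 ± 0.13, SE; adjusted p = 0.000857). Trim71, a let-7 target and RNA repressor, had 15.4, 8.95 and 16.8 CPM in control tracheas, against 62.5, 64.5 and 69.9 CPM in control foreguts (log2 fold change -2.26 ± 0.20, SE; adjusted p = 0.000481). The lowest foregut value exceeded the highest trachea value in all 3. Sall4 (-2.87), Prtg (-1.53), Arid3b (-1.34), Igf2bp1 (-1.07) and Mycn (-1.06) fell in every fit. Hmga2, an architectural chromatin protein and a well-known let-7 target, was among the abundant genes in both groups, with 968, 992 and 1131 CPM in control tracheas, against 890.4, 798 and 977 CPM in control foreguts (log2 fold change 0.21, adjusted p = 0.234). Hmga1 is uncertain, because Hmga1b, a near-identical copy, had 0, 0.501 and 0 CPM in control tracheas, against 376, 433 and 3.15 CPM in control foreguts, and control foregut replicate 3, low for Hmga1b, was the highest for Hmga1. The summed CPM of both was 295, 298 and 401 in control tracheas, against 726, 771 and 703 in control foreguts. This sum was chosen after its values were seen and was not tested.

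Because several of these genes are textbook let-7 targets, the sequences that would pair were read from the references. MicroRNAs were not measured in these libraries. RefSeq's mouse table (GRCm38.p6) held 11 mature microRNAs with the let-7 seed, bases 2 to 8, shown in capitals for 4 of them, which differ outside the seed.
mmu-let-7a-5p (chr13:48538239-48538260, minus strand): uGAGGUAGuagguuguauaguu
mmu-let-7g-5p (chr9:106178846-106178867, plus strand): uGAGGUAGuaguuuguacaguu
mmu-let-7i-5p (chr10:122985698-122985719, minus strand): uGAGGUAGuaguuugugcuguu
mmu-miR-98-5p (chrX:151913229-151913250, plus strand): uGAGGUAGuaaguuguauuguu

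The 7-base complement of that seed, CTACCTC, was counted on the sense strand of the longest annotated 3′ untranslated region of each gene (GENCODE M21, GRCm38). It occurred in 11 of the 13 tested heterochronic genes and in 10.9% of the 13204 tested genes with such a region. These regions were 913 to 6337 bases long in the 13 genes (median 2160). Over all tested genes their median length was 1140 bases with 0 matches, 2272 with 1 and 3636 with 2 or more, and the share with a match was not adjusted for length. As several of the 13 genes are textbook let-7 targets, a high share with a match was built into the list. A match is a description of these letters, not a site shown to act. One match each is printed for the gene that fell most, for a gene with 4 matches that fell, and for Hmga2, which also has 4, with the match in capitals and all 3 regions on the minus strand.
Lin28a (chr4:134005182-134005211): gcacagcctgttgaaCTACCTCatttttgc
Trim71 (chr9:114512465-114512494): aacattgcctaagtcCTACCTCagcttaaa
Hmga2 (chr10:120364217-120364246): gccgacattcaatttCTACCTCagcatcag

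Lin28b and Igf2bp1 had 4 matches each, Lin28a and Prtg 2 each, and Sall4, Arid3b, Igf2bp2, Igf2bp3 and Hmga1 1 each, whereas Mycn and Dnmt3b had 0. Outside the heterochronic list, the 174 genes with 2 or more matches had a median log2 fold change of -0.04, with 18 lower and 23 higher. The 11768 genes with 0 matches had a median of -0.02, with 1240 lower and 1098 higher.

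**Figure D4:**
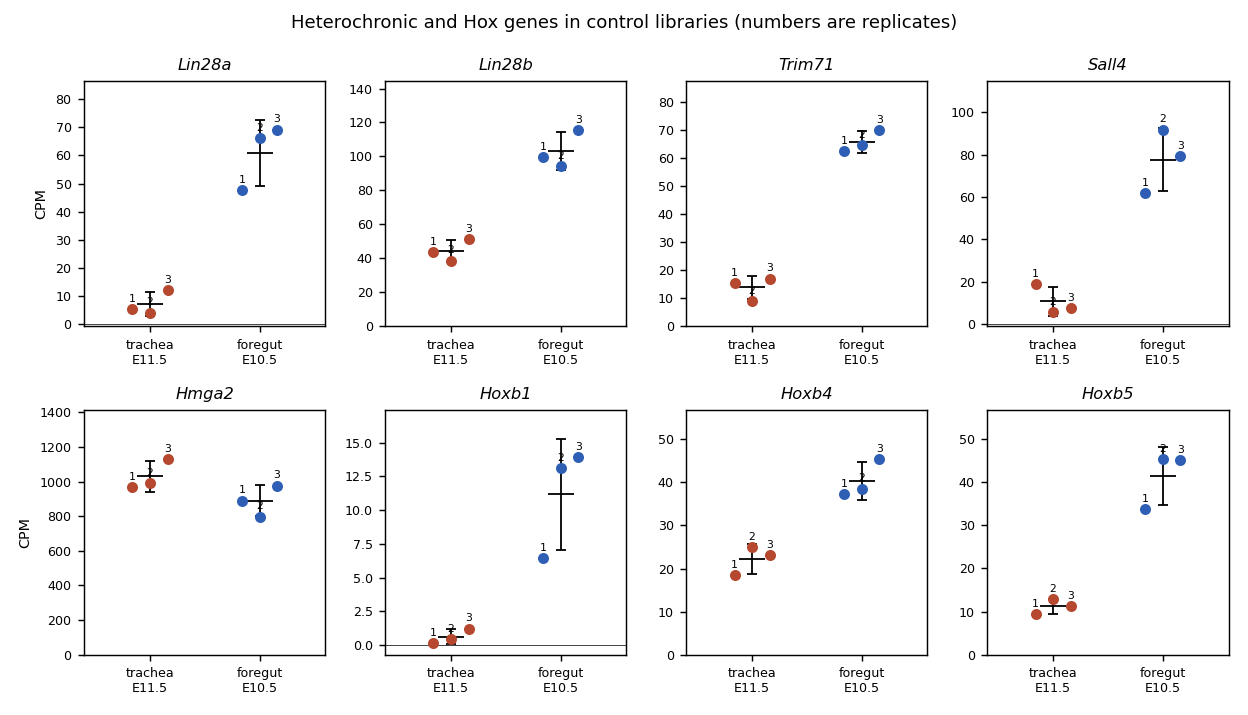
CPM of 5 heterochronic and 3 Hox genes in each control library, with control tracheas (E11.5) left of control foreguts (E10.5). Points are libraries with their replicate number, and bars are means with SD (n = 3). All but Hmga2 are lower in every control trachea than in any control foregut.

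Part of the cell cycle genes were lower, by small amounts. Of 24 genes of DNA replication and S phase, 14 were lower and 0 higher (5 lower in every fit, median -0.40), but the number was 6, 5 and 6 without control foregut replicate 1, 2 and 3 and 8 without control trachea replicate 2. Rrm2, a subunit of ribonucleotide reductase, had 150.3, 114 and 155 CPM in control tracheas, against 248, 244 and 262 CPM in control foreguts (log2 fold change -0.85 ± 0.13, SE; adjusted p = 0.00331). Mcm7 (-0.54) and Mcm10 (-0.59) of the replication machinery, Fen1 (-0.69) and the methylation reader Uhrf1 (-0.57) fell in every fit. Of 24 mitosis genes, 6 were lower, 0 higher and 18 did not pass (median -0.22), 2, 2 and 3 without control foregut replicate 1, 2 and 3, 3 without control trachea replicate 2 and 11 without control trachea replicate 1. Plk1 (-0.54) and Aurka (-0.57), mitotic kinases, fell in every fit. Among 13 other regulators 5 were lower, 1 was higher and 7 did not pass, and the number lower was 3 without control foregut replicate 2. Beside Mycn they were Mycl (-1.22), Ccnd2, the cyclin-dependent kinase inhibitor Cdkn1a (-1.10, adjusted p up to 0.0581) and Trp53 (-0.49, up to 0.0573). Cdkn1c, an imprinted gene whose product also inhibits these kinases, had 349.9, 379.7 and 341 CPM in control tracheas, against 199.5, 180.0 and 218 CPM in control foreguts (log2 fold change 0.84 ± 0.11, SE; adjusted p = 0.00185). Ccnd2, cyclin D2, had 649, 336 and 471 CPM in control tracheas, against 919, 1003 and 925 CPM in control foreguts (log2 fold change -0.97 ± 0.21, SE; adjusted p = 0.0136), with replicate 1 the trachea nearest the foreguts.

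Imprinted genes were mixed, 8 of 22 higher and 3 lower (median 0.29). Meg3 had 79.6, 151 and 106 CPM in control tracheas, against 45.7, 55.5 and 43.1 CPM in control foreguts (log2 fold change 1.23 ± 0.21, SE; adjusted p = 0.00581). Meg3, Rian (0.81) and Rtl1 (1.95) come from the 1 imprinted Dlk1-Dio3 region, and all 3 rose, with Sgce (0.68), while Magel2 (-1.55) fell. Peg10 (-0.65, adjusted p up to 0.113) and Nnat (-0.35, up to 0.165) were lower with all 6 libraries. The number higher was 5 without control foregut replicate 1 or control trachea replicate 2, and the number lower was 1 without control foregut replicate 2 or 3 or control trachea replicate 2 or 3.

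Macrophage genes rose. Of 14 tested, 10 were higher and 0 lower, 6 in every fit (median 1.5). Csf1r, the receptor that macrophages need to survive, had 12.4, 11.4 and 11.8 CPM in control tracheas, against 4.28, 4.38 and 4.27 CPM in control foreguts (log2 fold change 1.46 ± 0.16, SE; adjusted p = 0.00111). C1qb, a complement chain of tissue macrophages, had 6.71, 9.09 and 7.19 CPM in control tracheas, against 2.35, 2.39 and 2.24 CPM in control foreguts (log2 fold change 1.72 ± 0.22, SE; adjusted p = 0.00188). All 14 had a positive log2 fold change, and Ctss (3.44), C1qc (2.0), Cd68 (1.36) and Laptm5 (0.92) rose in every fit too. The summed CPM of the 16 genes was 79.0, 96.1 and 74.7 in control tracheas and 34.3, 35.6 and 30.3 in control foreguts. Endothelial genes showed no such shift, with 3 of 17 higher, 1 lower and a median of 0.09. The 3, Pecam1 (0.51), Flt1 (0.46) and Tek (0.66), and the lower gene Plvap (-0.58) were not called in every fit (adjusted p up to 0.0907, 0.141, 0.126 and 0.116). The number higher was 0 without control foregut replicate 1 or 2 or control trachea replicate 2 and 1 without control foregut replicate 3, and the number lower was 0 without control foregut replicate 1, 2 or 3 or control trachea replicate 2 or 3.

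Other cell types were read from shorter lists. Of 20 tested neural crest, glial and enteric neuron genes, 2 were higher and 4 lower (median 0.03). Ednrb, an endothelin receptor of neural crest cells, had 56.3, 108 and 81.6 CPM in control tracheas, against 27.4, 22.6 and 25.5 CPM in control foreguts (log2 fold change 1.70 ± 0.21, SE; adjusted p = 0.00161). Ret (-1.18), the GDNF receptor of enteric progenitors, and Tfap2b (-1.21) fell, and the defining genes Sox10 (0.16) and Tubb3 (-0.08) did not pass (adjusted p = 0.741 and 0.9). Th (-1.11, up to 0.0922) and Hand2 were lower and Fabp7 (1.98, up to 0.0982) higher with all 6 libraries. With 1 library left out there were 4 higher without control trachea replicate 1, 1 higher without control foregut replicate 2 or 3 or control trachea replicate 2, and 2 lower without control foregut replicate 1 or 2 or control trachea replicate 2. Of 9 mesothelial and epicardial genes, 4 were higher and 1 lower, with Tbx18 (1.85) and Upk3b (1.12) higher and Krt19 lower in every fit. Bnc1 (1.43) and Lrrn4 (0.80) made up the 4, leaving 2 higher without control foregut replicate 1 or 2 or control trachea replicate 3. Of 15 cardiomyocyte genes, 7 were higher and 1 lower (median 1.70), 4, 4 and 2 higher without control foregut replicate 1, 2 and 3. The lower gene was the heart factor Nkx2-5 (-2.81, adjusted p up to 0.159), and the number lower was 3 without control trachea replicate 1 and 0 in each of the other fits. Tnnt2, a thin-filament protein of heart muscle, had 41.0, 29.2 and 15.2 CPM in control tracheas, against 4.40, 3.13 and 2.72 CPM in control foreguts (log2 fold change 3.06 ± 0.36, SE; adjusted p = 0.00138). Without control trachea replicate 1 its log2 fold change was 2.70, against 2.21 for Ttn (adjusted p = 0.000231 and 0.0629).

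No globin gene passed the test, while the share of adult beta-globins did not overlap between the groups. Adult beta-globins, Hbb-bs and Hbb-b2 summed because their sequences are nearly identical, made up 9.66%, 6.77% and 5.64% of beta-like globin TPM in control tracheas and 3.06%, 2.38% and 1.24% in control foreguts, the rest being the embryonic Hbb-y and Hbb-bh1 (exact two-sided permutation p = 0.1, the smallest possible). Hbb-bh1 alone made up 9.50%, 14.5% and 18.3% of beta-like globin TPM in control tracheas and 22.9%, 18.6% and 16.5% in control foreguts. Its shares overlapped between the groups (exact two-sided permutation p = 0.2). The embryonic alpha-like globin Hba-x made up 89.3%, 88.2% and 89.9% of alpha-like TPM in control tracheas and 90.1%, 90.5% and 90.1% in control foreguts.

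**Figure D5:**
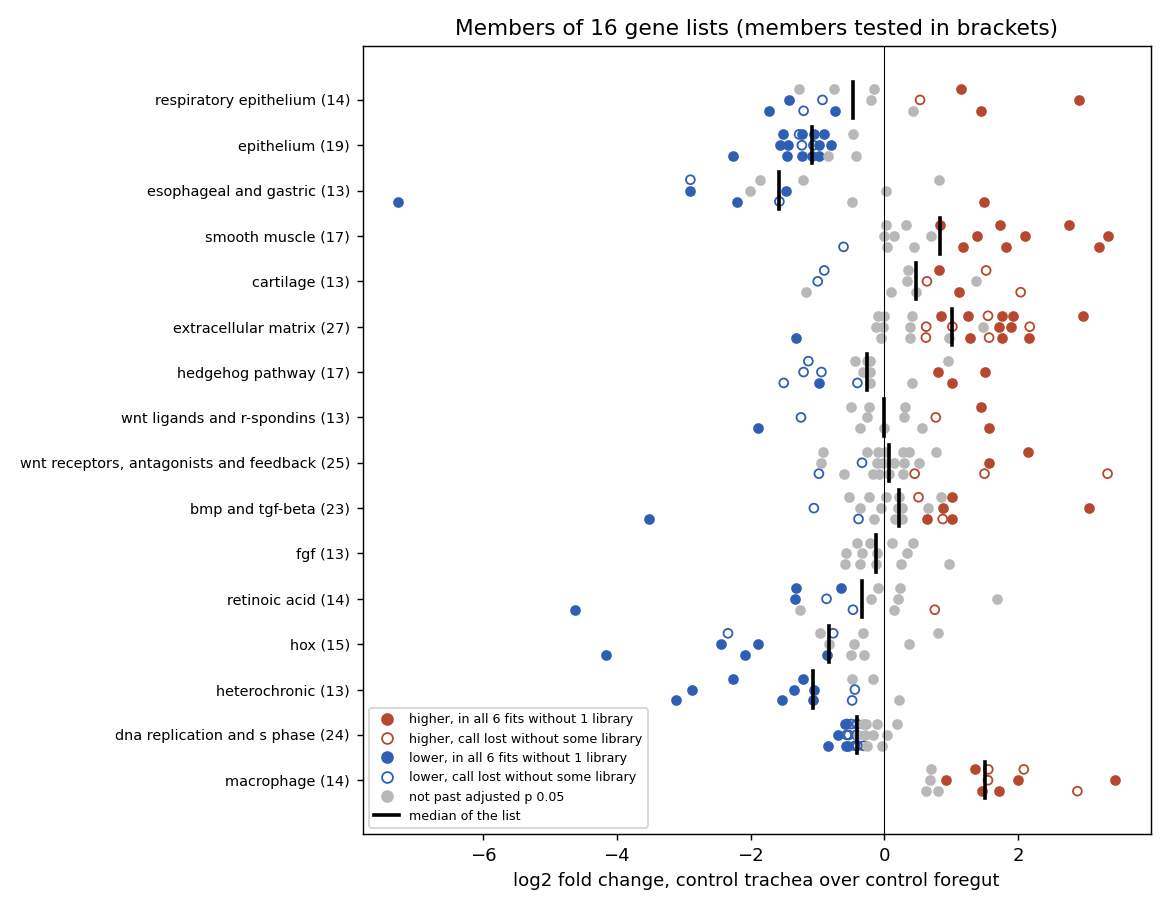
Log2 fold change, control trachea over control foregut, of every tested member of 16 gene lists, with the number tested in brackets and the list's median as a black bar. Filled red and blue points were called higher or lower in every fit that left out 1 library, open points lost the call in at least 1, and gray points did not pass an adjusted p of 0.05. The smooth muscle and matrix lists lie mostly to the right of 0 (medians 0.84 and 1.02) and the epithelial and heterochronic lists to the left (medians -1.08 and -1.07).

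The same contrast was read in the mutant libraries, 4 Foxg1Cre;Gli3TFlag/+ tracheas against 3 Foxg1Cre;Gli3TFlag/+ foreguts, none of them in the control contrast. Stage, tissue and dissection change together between the mutant groups as well, so their parts cannot be told apart there either. Of the 1219 control calls, 1174 were tested there, and 1028 (87.56%) lay on the same side of 0. Of the 1174, 414 (35.26%) also had an adjusted p under 0.05 in the same direction, and 2 did so in the opposite direction. The matching shares over all tested genes are not set beside these percentages, which are a description only. Lin28a had a log2 fold change of -4.14 in mutants, against -3.11 in controls. Myh11 had 5.83 in mutants, against 3.22 in controls, and Nkx2-1 1.31 in mutants, against 1.15 in controls. These 3 kept their sides. Sox9 had -0.10 in mutants, against 0.81 in controls, Rspo2 -0.03 in mutants, against 0.77 in controls, and Wnt4 -0.18 in mutants, against -1.88 in controls. Pitx1 had -1.21 in mutants, against -7.26 in controls, and AK195420 had -1.01 in mutants, against -13.93 in controls. Neither passed the test in mutants (adjusted p = 0.112 and 0.675). Whether the contrast differed between genotypes was not tested here.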

How the data were processed

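Libraries were made from amplified RNA (Ovation, Nextera XT) and read as single 75-base reads, without marking strand. Reads of overlapping antisense genes and near-identical copies could therefore be shared. According to the study's methods, the authors used BBDuk for trimming, Bowtie2 and the mm10 genome for alignment, and RSEM (1.3.0 in the submitters' processing notes) for counting. The gene annotation is not given in sources used here. The authors deposited RSEM's estimated counts per gene symbol as whole numbers, not normalized, and TPM values, scaled by transcript length and library, in 1 table per stage. Replicates were not pooled.

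The 2 count tables were joined by symbol and fitted with edgeR 4.0.16 in R 4.3.3 (filterByExpr, TMM, quasi-likelihood test, no block). Library totals of 12547575 to 17988461 counts set the precision. Intervals and floors for low counts cover counting error only. Counts were simulated for this contrast (14991 genes in the fit), with 99 genes given a log2 change of 2 and 99 a change of 1. The fit called 92.9% of the former and 60.6% of the latter. Of its 165 calls, 13 were genes simulated without a change. Far fewer genes changed there than the 20.9% called in the data, so these rates may not hold for the data. Alternatives used limma 3.58.1 and DESeq2 1.42.0.

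The comparison, the 36 gene lists and the naming rule were chosen with earlier results of these data known. Named were the 10 largest changes per direction among genes called with all 6 libraries and in every fit without 1 library, where the groups were separate and log2 CPM averaged 4 or more, leaving out Xist, Tsix, Y-linked genes and symbols starting with Gm or ending in Rik. Also named were up to 6 such members per list by adjusted p, the genes the study names for tracheal cartilage, defining markers, and all called members of a list with 5 or fewer in a direction, apart from a few that are not reported here. The thresholds of 1 and 0.05 are those of the study. Further members of the lists, the Hmga1 sum, the ratios within libraries and the let-7 matches were chosen after their values were seen.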

Additional observations from a re-analysis of the deposited data

How the results depend on the processing

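With 1 library left out, the genes higher in control tracheas numbered 582 to 1059 (979 with all 6), those lower 160 to 421 (240), and the share of control calls on the same side in mutants was 81.79% to 92.37% (87.56%). Limma on log2(TPM + 1) gave 473 higher and 145 lower, and 92.09% on the same side. Library size without scaling factors gave 85.08%. An adjusted p under 0.05 with no fold threshold gave 1737 and 1453 genes, and a log2 fold change of 2 in size with an adjusted p of 0.01 gave 125 and 46. The replicate numbers do not pair the libraries (deviations of same-numbered libraries correlated at -0.235, -0.039 and -0.241), and the fit with the replicate number as a block gave 700 higher and 204 lower (88.49% on the same side), 889 of its 904 calls shared. DESeq2 called 1293 genes, 1171 of them shared. Scaling by RLE, upper quartile or library size moved the median of all genes between 0.00 and 0.08, and the share of calls that were higher between 78.66% and 83.79%. None of the 124 genes tested for the naming rule changed direction under any setting in which it was tested. For genes named because their call held in every fit, the rule itself fixed the direction in the 6 fits without 1 library. With at least 10 counts required in every library, 112 of the 124 were tested. Few counts in 1 group limit what the tests on Notum, Grem1 and Pitx1 can show.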

Other observations

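Some lists not described above also held genes that moved. Of 22 glycolysis and hypoxia genes, 4 were lower and 1 higher (median -0.08). Hk2, a hexokinase, had 46.1, 40.4 and 39.0 CPM in control tracheas, against 62.6, 60.6 and 67.1 CPM in control foreguts (log2 fold change -0.60 ± 0.10, SE; adjusted p = 0.00514), and was lower in every fit, while the number lower was 2, 1 and 2 without control foregut replicate 1, 2 and 3 and 7 without control trachea replicate 2. Slc2a3 (-0.69), Pgam1 (-0.49) and Pkm (-0.42) were the others lower. The gene higher was Egln3 (1.10), and the number higher was 0 without control foregut replicate 1 or 2 or control trachea replicate 2, 4 without control trachea replicate 1 and 2 without control trachea replicate 3. Of 9 pericyte genes, 3 were higher and 0 lower with all 6 libraries. Rgs5 had 343, 77.8 and 76.2 CPM in control tracheas, against 140, 240 and 87.9 CPM in control foreguts. With all 6 libraries this defining marker did not pass (0.09, adjusted p = 0.928). Leaving out control trachea replicate 1 gave 3 higher and 2 lower, Rgs5 (-1.02, adjusted p = 0.0371) and Notch3 (-0.85, adjusted p = 0.000329). Kcnj8, a potassium channel of pericytes, had 9.21, 11.4 and 10.8 CPM in control tracheas, against 0.904, 0.227 and 1.6 CPM in control foreguts (log2 fold change 3.50 ± 0.45, SE; adjusted p = 0.00199), and the number higher was 1 without control foregut replicate 1 or 2, where Mcam (0.58) and Pdgfrb (0.35) were not called. Of 10 interferon-response genes, 3 were higher and 0 lower, with Iigp1 higher in every fit, Oasl2 (1.14) and B2m (0.40) not, and 1 higher without control foregut replicate 1. Of 19 immediate early and heat-shock genes, 3 were lower, among them Dusp1 (-0.60) and Hsp90aa1 (-0.58), and 2 higher, Egr1 (0.85) and Ier3 (1.49). Dnajb1, a heat-shock cochaperone, had 81.9, 80.4 and 106 CPM in control tracheas, against 138, 128 and 136 CPM in control foreguts (log2 fold change -0.58 ± 0.12, SE; adjusted p = 0.0112), the number lower was 1 without control foregut replicate 1 or 2, and the number higher was 0 without control foregut replicate 1, 2 or 3 or control trachea replicate 2 and 1 without control trachea replicate 1 or 3. Of 6 skeletal muscle genes, Pax3 (1.46) and Tnnt1 (0.98) were higher and 0 lower, with 0 higher without control foregut replicate 1 or 2 and 1 without control trachea replicate 2. Myh3 had 8.73, 0.573 and 0.508 CPM in control tracheas, against 1.15, 0.966 and 1.33 CPM in control foreguts, and did not pass (adjusted p = 0.287). Myog had 3.23, 0 and 0 CPM and Mymk 4.20, 0 and 0 CPM in control tracheas. Both had too few counts to test. Of 4 pharynx and thyroid genes, 3 were lower and 1 higher, with Eya1 (-1.27) lower in every fit. Tbx1 (-1.39) was also lower, and the number lower was 1 without control foregut replicate 2 or 3, and Tshr (1.19) was higher, in no fit without a foregut library or control trachea replicate 2. Of 6 tested liver, pancreas and intestine genes, Apob (-2.28) was lower and Prox1 (0.82) higher, the call of Prox1 lost without control foregut replicate 2 (adjusted p = 0.0516). The number lower was 2 without control foregut replicate 3 or control trachea replicate 1.

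The 3 control libraries per group limit every statement to the spread among these dissections. Stage, tissue and dissection cannot be told apart, and neither can a change in cell composition and a change per cell. The part of control trachea replicate 1's cardiac, skeletal muscle, Trp63 and Shh transcripts in the results beside which they stand was not tested.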
